A study of Mus musculus with 6 samples.

Results

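The 10 genes described here encode liver UDP-glucuronosyltransferases (UGTs): Ugt1a1, Ugt1a5, Ugt1a6a, Ugt1a6b, Ugt1a9, Ugt2b1, Ugt2b5, Ugt2b36, Ugt2b38 and Ugt3a1. They were chosen by name and matched exactly to the symbols of a table of 35976 genes, where all 10 were found. The table holds bulk RNA sequencing of poly(A) RNA from livers of male mice, 3 libraries of genotype IRE1fl and 3 of genotype IRE1PKO. Both groups received the diet labelled HFD, read here as a high-fat diet, and were fasted for 16 hours and then fed for 4 hours. IRE1 is the kinase and endonuclease made from Ern1, through which the endoplasmic reticulum signals an overload of unfolded protein. The "fl" of IRE1fl is read as the floxed allele without deletion. The labels do not spell out PKO, name no Cre driver and give neither age nor strain, and the title of the series speaks of signals from the pituitary to the liver in fatty liver disease.

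UGTs are enzymes of the endoplasmic reticulum membrane that transfer glucuronic acid from UDP-glucuronic acid to bilirubin, steroid and thyroid hormones, bile acids, phenols and drugs, which makes them soluble enough to leave in bile or urine. The Ugt1a enzymes come from a single locus in which alternative first exons are spliced to a common set of last exons. The first exon encodes the part that binds the substrate, and the common exons encode the part that binds the sugar donor. The Ugt2b enzymes come from separate, neighbouring genes, and Ugt3a enzymes transfer other sugars.

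Total counts ranged from 35776219 to 39277435 per library. Levels are given in CPM, that is, counts scaled to a common library size with TMM factors. Liver Ern1 had 49.3 to 61.2 CPM in IRE1fl and 36.6 to 45.7 CPM in IRE1PKO. Ern1 fell by 0.44 on the log2 scale (SE 0.11, edgeR adjusted p = 0.0357), a call lost with limma-voom, when scaled by library totals alone and without any single library other than IRE1fl 2 (adjusted p up to 0.137). Since the labels do not name the deleted tissue, this checks no label. The hepatocyte list of 10 markers was abundant in every library. Its summed level was 94069 to 109539 CPM in IRE1fl and 86219 to 103872 CPM in IRE1PKO. Of the 10 markers 5 fell and none rose, against 3.86% of all tested genes called lower. In bulk tissue, fewer cells of a type and less RNA per cell cannot be told apart. Separate animals are not stated for the libraries, and each p-value rests on a spread between libraries that may be technical.

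Of the 10 UGT genes, Ugt1a9 rose in IRE1PKO and none fell, tested by quasi-likelihood in edgeR at a Benjamini-Hochberg adjusted p of 0.05 over 14954 genes. Over all tested genes, 5.68% were called higher and 3.86% lower (7.68% and 2.78% with library totals as the only scaling), 9.54% in either direction, so 1 of 10 is near the background. All 10 passed the filter on low counts. At an unadjusted p under 0.05 there were 5 higher and 2 lower members, against 25.0% of all tested genes in either direction. The median log2 fold change (IRE1PKO over IRE1fl) was 0.09 over the members and -0.00 over all tested genes, and the median size regardless of sign was 0.31 and 0.21. All 5 Ugt1a members had positive values and the 4 Ugt2b members and Ugt3a1 negative ones. The 2 groups of libraries did not overlap for 4 higher and 3 lower members, where 31.0% of all tested genes did not overlap (16.0% higher and 15.0% lower). None of the 10 members changed sign under any alternative setting that was run.

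**Figure D1:**
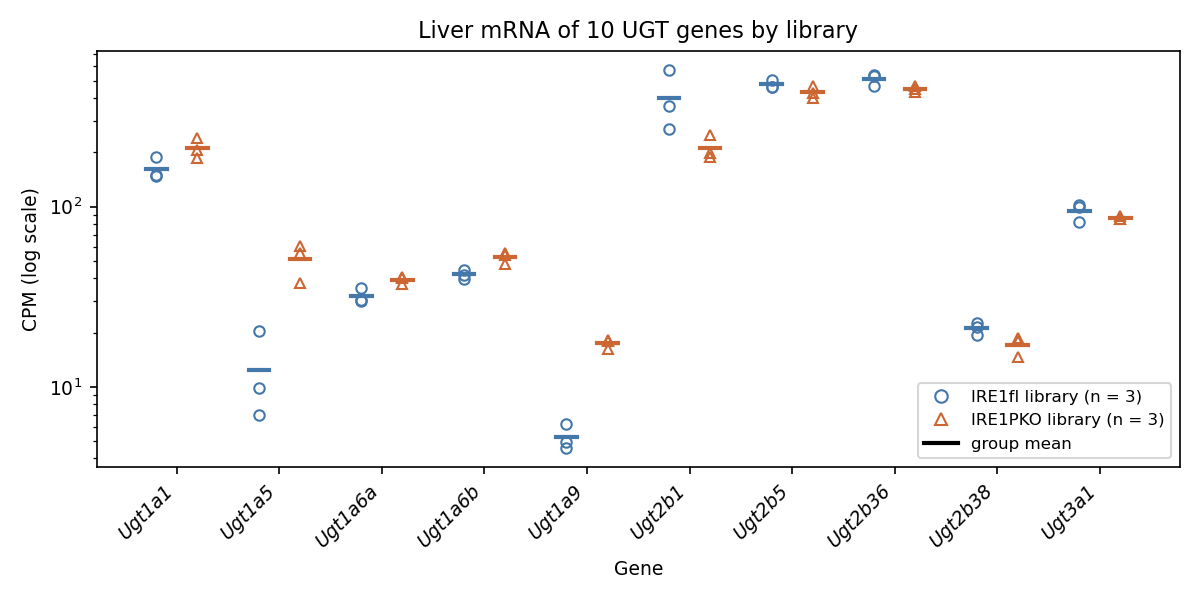
Normalised level of each of the 10 UGT genes in CPM on a log axis; circles are the 3 IRE1fl libraries, triangles the 3 IRE1PKO libraries and horizontal lines the group means. The 3 IRE1PKO libraries lie between 16.2 and 18.3 CPM for Ugt1a9, above the 4.60 to 6.20 CPM of IRE1fl, while the Ugt2b5 and Ugt3a1 libraries overlap.

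The Ugt1a members lie on chromosome 1, with starts far apart and ends close together in the RefSeq annotation of GRCm38.p6, the build named mm10. Ugt1a9 spans 88070779 to 88220002, Ugt1a6b 88103257 to 88218998, Ugt1a6a 88134809 to 88220002, Ugt1a5 88166012 to 88220002 and Ugt1a1 88211959 to 88220002. In GENCODE M21 the last 740 coding bases of the 5 members are identical. Before them, the coding sequences of Ugt1a6a and Ugt1a6b are 97.0% identical, with an unbroken identical run of 251 bases. The other pairs are at most 61.1% identical there, with identical runs of at most 20 bases. Ugt1a2 and Ugt1a7c, which carry the same last exons, had only 2 to 14 and 4 to 12 counts per library, while Ugt1a1 had 5382 to 8866. Reads over the common exons were therefore not added to every gene of the locus, but no source used here states how they were treated. The split between Ugt1a6a and Ugt1a6b is uncertain.

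Ugt1a9, whose enzyme conjugates phenols and drugs, was the member that rose. Its level was 6.20, 4.60 and 4.96 CPM in IRE1fl and 18.3, 16.2 and 18.0 CPM in IRE1PKO. Every IRE1PKO library was above every IRE1fl library, and the libraries of a group lay close together. The mean went from 5.25 ± 0.843 to 17.5 ± 1.15 CPM (SD, n = 3 each), a 3.33-fold rise with a log2 fold change of 1.74 (SE 0.15, edgeR adjusted p = 0.000107). It passed in all 16 alternatives that tested it as a gene, which included leaving out each library in turn. There the log2 fold change ran from 1.65 to 1.87, with an adjusted p of at most 0.00137.

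Ugt1a5 had the largest log2 fold change of the members but did not pass the test. It had 7.01, 20.4 and 9.86 CPM in IRE1fl and 60.8, 55.0 and 37.6 CPM in IRE1PKO. The groups did not overlap, yet IRE1fl 2 was at more than the level of the other IRE1fl libraries combined. The log2 fold change was 2.04 (SE 0.48, edgeR adjusted p = 0.0752), from 12.4 ± 7.04 to 51.1 ± 12.1 CPM. It passed in 5 of 16 alternatives. Without IRE1fl 2 it was 2.60 (edgeR adjusted p = 0.00374). It also passed with the DESeq2 Wald test (adjusted p = 0.0012), with limma-voom (0.00441) and without robust fitting (0.00763).

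Ugt1a1, the main bilirubin-conjugating enzyme of liver, was the most abundant Ugt1a member per kilobase of exon in both groups. It had 149.1, 189.0 and 148.6 CPM in IRE1fl and 187.3, 240.6 and 205.9 CPM in IRE1PKO. The groups overlapped, since IRE1fl 2 lay above IRE1PKO 1. The log2 fold change was 0.38 (SE 0.12, edgeR adjusted p = 0.0803). It passed in 6 of 16 alternatives, among them those without IRE1fl 2 (log2 fold change 0.51, edgeR adjusted p = 0.0439) and with the DESeq2 Wald test (0.0422).

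Ugt1a6a and Ugt1a6b encode near-identical enzymes for simple phenols. Ugt1a6a had 35.5, 30.3 and 30.1 CPM in IRE1fl and 37.0, 40.0 and 40.8 CPM in IRE1PKO. Ugt1a6b had 39.7, 44.5 and 41.9 CPM in IRE1fl and 47.8, 55.1 and 54.2 CPM in IRE1PKO. For both genes every IRE1PKO library was above every IRE1fl library, by a narrow margin. The log2 fold changes were 0.30 (SE 0.10, edgeR adjusted p = 0.0769) for Ugt1a6a and 0.32 (SE 0.09, adjusted p = 0.0510) for Ugt1a6b. Ugt1a6a passed in 3 of 16 alternatives, among them that without IRE1fl 1 (log2 fold change 0.38, edgeR adjusted p = 0.0433). Ugt1a6b passed in 6 of 16, among them the DESeq2 Wald test (adjusted p = 0.0487).

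**Figure D2:**
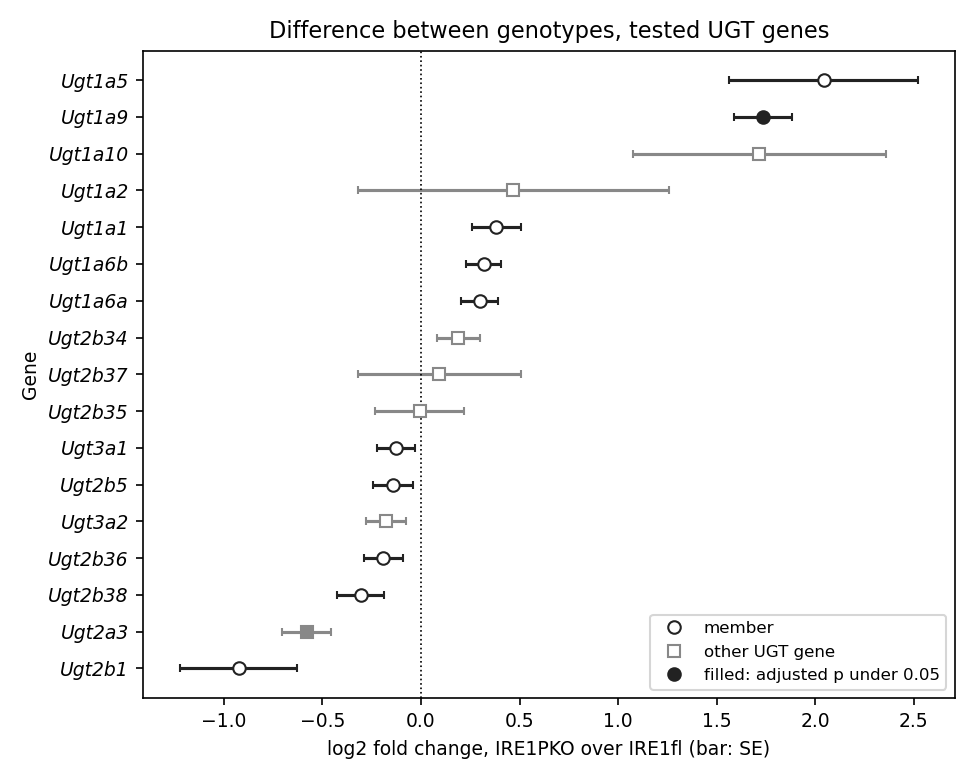
Log2 fold change, IRE1PKO over IRE1fl, of the 17 UGT genes that were tested, with bars of 1 SE; circles are members, squares other UGT genes, and filled symbols passed at an adjusted p of 0.05. Ugt1a9 at 1.74 and Ugt2a3 at -0.58 are the filled symbols, and Ugt1a5 at 2.04 and Ugt2b1 at -0.93 have wider bars and are open.

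Summed over the 5 Ugt1a members, the level was 237, 289 and 235 CPM in IRE1fl and 351, 407 and 356 CPM in IRE1PKO, a log2 ratio of means of 0.55. The IRE1PKO sums all lay above the IRE1fl sums. Within it the shares moved unequally. Ugt1a5 made up 2.95%, 7.05% and 4.19% of the sum in IRE1fl and 17.3%, 13.5% and 10.5% in IRE1PKO. Ugt1a9 made up 1.59% to 2.61% in IRE1fl and 3.98% to 5.21% in IRE1PKO. The share of Ugt1a1 was 62.8% to 65.5% in IRE1fl and 53.3% to 59.1% in IRE1PKO. The share of Ugt1a6b was 15.4% to 17.8% in IRE1fl and 13.5% to 15.2% in IRE1PKO. For these 4 genes the shares of the groups did not overlap, and for Ugt1a6a they did. These shares are of counts, not of molecules, since the counted length differs between genes.

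**Figure D3:**
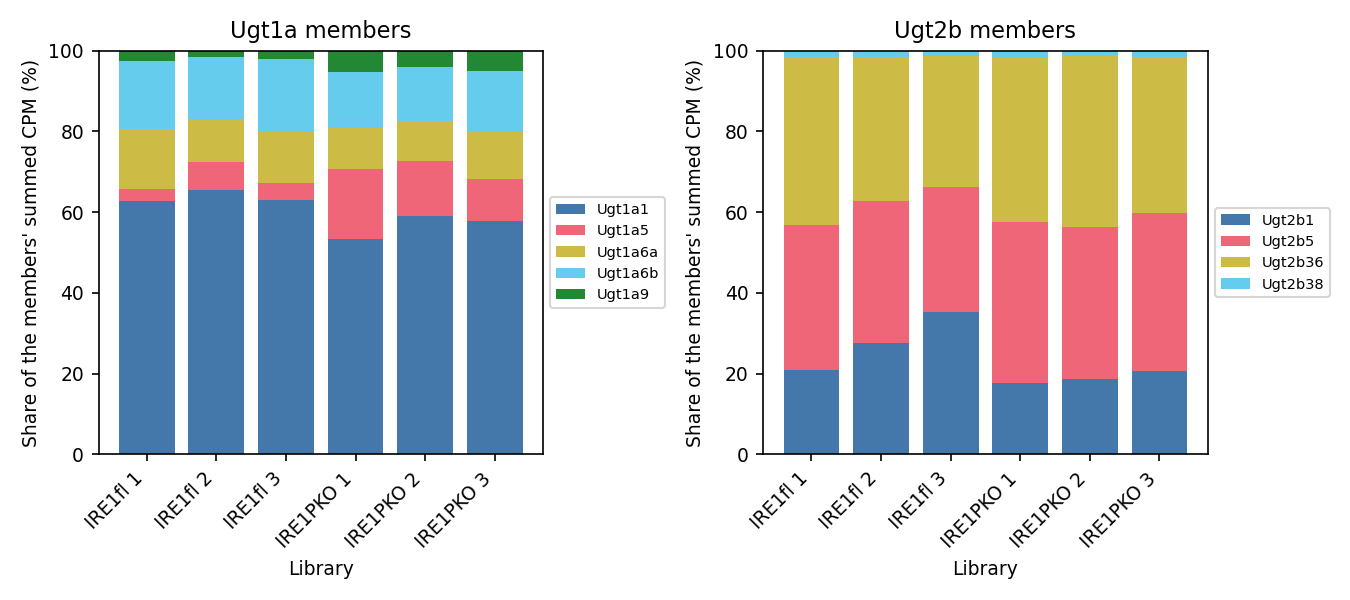
Share of each gene in the summed CPM of the 5 Ugt1a members (left) and the 4 Ugt2b members (right), in percent, with 1 stacked bar for each of the 6 libraries. On the left the Ugt1a5 band is at 2.95% to 7.05% in IRE1fl and 10.5% to 17.3% in IRE1PKO; on the right the Ugt2b1 band is at 20.9% to 35.2% and 17.6% to 20.8%.

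The starts of the Ugt1a genes are separate, so each has its own promoter. RefSeq promoters of GRCm38.p6, taken as the 250 bases before the start each has in the promoter table, were matched for 9 of the 10 members, all but Ugt1a6b. For Ugt3a1 that start lies a few bases inside the gene's span given here. Those of Ugt1a9, the member that rose, and of its neighbour Ugt1a10 share an unbroken run of 32 bases, the longest they have in common. It was found in 2 of 32851 promoters of the same length (0.00609%). Since the run was taken from these 2 promoters, that count is no test of it. Their stretches are shown with the run in capitals, and that of Ugt1a5 with a match to the motif GCGTG in capitals:
Ugt1a9: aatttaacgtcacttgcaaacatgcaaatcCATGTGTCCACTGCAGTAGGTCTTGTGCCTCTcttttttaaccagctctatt
Ugt1a10: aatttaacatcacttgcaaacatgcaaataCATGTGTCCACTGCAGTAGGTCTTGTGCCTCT
Ugt1a5: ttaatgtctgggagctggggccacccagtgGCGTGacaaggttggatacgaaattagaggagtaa

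All 3 stretches are on the plus strand, at chr1:88070697-88070778 for Ugt1a9, chr1:88055349-88055410 for Ugt1a10 and chr1:88165933-88165997 for Ugt1a5. The 250-base promoters of Ugt1a9 and Ugt1a10 were 69.2% identical. Motifs were searched on both strands. The core GCGTG, bound by the aryl hydrocarbon receptor, was found in the promoter of Ugt1a5 and in no other matched member, against 28.2% of all promoters. The antioxidant response element TGACNNNGC and the core ACGTG, which XBP1 and other factors can bind, were in none of the 9, against 10.2% and 16.6% of all promoters. These matches describe letters in a window and say nothing of binding.

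The Ugt2b members lie on chromosome 5, all on the minus strand. Ugt2b1 spans 86916639 to 86926503, Ugt2b36 87065927 to 87092555, Ugt2b5 87124946 to 87140340 and Ugt2b38 87409939 to 87424203. Their enzymes conjugate steroids, bile acids and drugs. None of the 4 passed the test in edgeR. The coding sequences of Ugt2b5 and Ugt2b38 are 97.0% identical with an identical run of 443 bases, so reads may be shared between them. Ugt2b1 is the most distant, 74.2% to 74.7% identical to the other members.

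Ugt2b1 had the lowest log2 fold change of the members. It had 269, 363 and 576 CPM in IRE1fl and 188, 198 and 250.1 CPM in IRE1PKO. The groups did not overlap, and the IRE1fl libraries were spread widely, IRE1fl 3 standing highest. The log2 fold change was -0.93 (SE 0.30, edgeR adjusted p = 0.122), from 403 ± 157 to 212 ± 33.4 CPM. It was -0.58 without IRE1fl 3 (edgeR adjusted p = 0.0875), and -1.15 without IRE1fl 1, where it passed (0.0136). It also passed without robust fitting (edgeR adjusted p = 0.0453) and in 1 other of 17 alternatives.

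The other Ugt2b members differed little between the groups. Ugt2b36 had 538, 469 and 530.1 CPM in IRE1fl and 434, 448 and 465 CPM in IRE1PKO, groups that did not overlap but nearly touched. Its log2 fold change was -0.19 (SE 0.10, edgeR adjusted p = 0.254). Ugt2b5 had 463, 463 and 508 CPM in IRE1fl and 427, 402 and 470.2 CPM in IRE1PKO, which overlapped. Its log2 fold change was -0.14 (SE 0.10, adjusted p = 0.414). Ugt2b38, a gene of far lower level, had 19.4, 21.5 and 22.6 CPM in IRE1fl and 17.9, 14.7 and 18.7 CPM in IRE1PKO, with no overlap. Its log2 fold change was -0.31 (SE 0.12, adjusted p = 0.133). A p that misses the threshold does not show that these levels are equal.

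Summed over the 4 Ugt2b members, the level was 1290 to 1637 CPM in IRE1fl and 1062 to 1204 CPM in IRE1PKO, a log2 ratio of means of -0.35. The share of Ugt2b1 in it was 20.9%, 27.5% and 35.2% in IRE1fl and 17.6%, 18.6% and 20.8% in IRE1PKO. The groups met between IRE1fl 1 and IRE1PKO 3 without overlapping. Over all 10 members the sum was 1629 to 1954 CPM in IRE1fl and 1504 to 1650 CPM in IRE1PKO, which overlapped.

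The last 70 bases before the start are shown for the Ugt2b members. Those of Ugt2b5, Ugt2b36 and Ugt2b38 hold an unbroken run of 22 bases, taken from these 3 promoters, which that of Ugt2b1 lacks. The run is in capitals:
Ugt2b5: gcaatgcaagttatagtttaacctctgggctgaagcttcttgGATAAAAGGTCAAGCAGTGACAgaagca
Ugt2b36: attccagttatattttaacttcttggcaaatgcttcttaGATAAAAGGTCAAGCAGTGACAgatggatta
Ugt2b38: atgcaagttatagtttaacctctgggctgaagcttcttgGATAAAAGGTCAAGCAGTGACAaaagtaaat
Ugt2b1: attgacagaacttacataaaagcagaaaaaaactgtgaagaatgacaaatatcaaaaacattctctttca

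These stretches are on the minus strand, at chr5:87140341-87140410 for Ugt2b5, chr5:87092556-87092625 for Ugt2b36, chr5:87424204-87424273 for Ugt2b38 and chr5:86926504-86926573 for Ugt2b1. Of 32851 promoters, 4 held the run (0.0122%), those of Ugt2b5, Ugt2b36, Ugt2b38 and Ugt2b37. Since the run was taken from promoters among these, that count is no test of it. The genes with the run had log2 fold changes of -0.14 (Ugt2b5), -0.19 (Ugt2b36), -0.31 (Ugt2b38) and 0.09 (Ugt2b37). Ugt2b1, which lacks it, had -0.93. The promoters of Ugt2b34 and Ugt2b35, genes with log2 fold changes of 0.19 and -0.01, also lacked the run. The part of the run in the UGT values was not tested. The 250-base promoters of Ugt2b5 and Ugt2b38 were 81.5% identical.

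Ugt3a1 spans 9279822 to 9315038 on chromosome 15. It had 102, 99.9 and 82.3 CPM in IRE1fl and 85.3, 85.7 and 89.0 CPM in IRE1PKO. The IRE1PKO libraries lay within the range of IRE1fl. The log2 fold change was -0.13 (SE 0.10, edgeR adjusted p = 0.459).

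Levels were compared between genes per kilobase of exon, taking for Ugt1a genes only the exons outside the common part. On this scale, in IRE1fl, Ugt2b36 (271 ± 20.0 CPM per kilobase, SD, n = 3), Ugt2b5 (257 ± 13.9), Ugt1a1 (178 ± 25.4) and Ugt2b1 (156 ± 61.1) were highest. Ugt1a6b (39.2 ± 2.27), Ugt3a1 (38.7 ± 4.37) and Ugt1a6a (29.6 ± 2.85) followed. Ugt1a5 (13.9 ± 7.89), Ugt2b38 (11.2 ± 0.863) and Ugt1a9 (5.98 ± 0.960) were lowest. Libraries of neighbours in this order overlapped for Ugt2b36 and Ugt2b5, Ugt1a1 and Ugt2b1, Ugt1a6b and Ugt3a1, and Ugt1a5 and Ugt2b38. In IRE1PKO, Ugt1a5 had 57.3 ± 13.5 CPM per kilobase, beside 48.9 ± 3.69 for Ugt1a6b, and Ugt1a9 had 19.9 ± 1.31, above the 9.06 ± 1.13 of Ugt2b38. The order holds only if reads over the common Ugt1a exons were left uncounted. Reads shared between Ugt2b5 and Ugt2b38, or between Ugt1a6a and Ugt1a6b, may also have moved their levels.

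Of 12 other UGT genes listed, 11 have a row, 9 had a count and 7 were tested. Among these Ugt2a3 fell and none rose. Ugt2a3 had 271, 267 and 261 CPM in IRE1fl and 158, 160 and 216 CPM in IRE1PKO, with no overlap. Its log2 fold change was -0.58 (SE 0.12, edgeR adjusted p = 0.0140). The Ugt2a3 call was lost without IRE1PKO 1 or IRE1PKO 2 (adjusted p of 0.0721 and 0.0683). Ugt1a10, the neighbour of Ugt1a9, had 4, 4 and 6 counts in IRE1fl and 11, 10 and 30 counts in IRE1PKO, a log2 fold change of 1.72 (SE 0.64, adjusted p = 0.121). Ugt3a2, Ugt2b34 and Ugt2b35 were abundant, with group means of 129 to 429 CPM, and none passed (log2 fold changes of -0.18, 0.19 and -0.01). Ugt2b37 (0.09) and Ugt1a2 (0.47) did not pass either. Ugt1a7c and Ugt8a had at most 12 counts in a library and were not tested, and Ugt2a1 and Ugt2a2 had no count. Ugt1a8 was not analysed here.

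**Figure D4:**
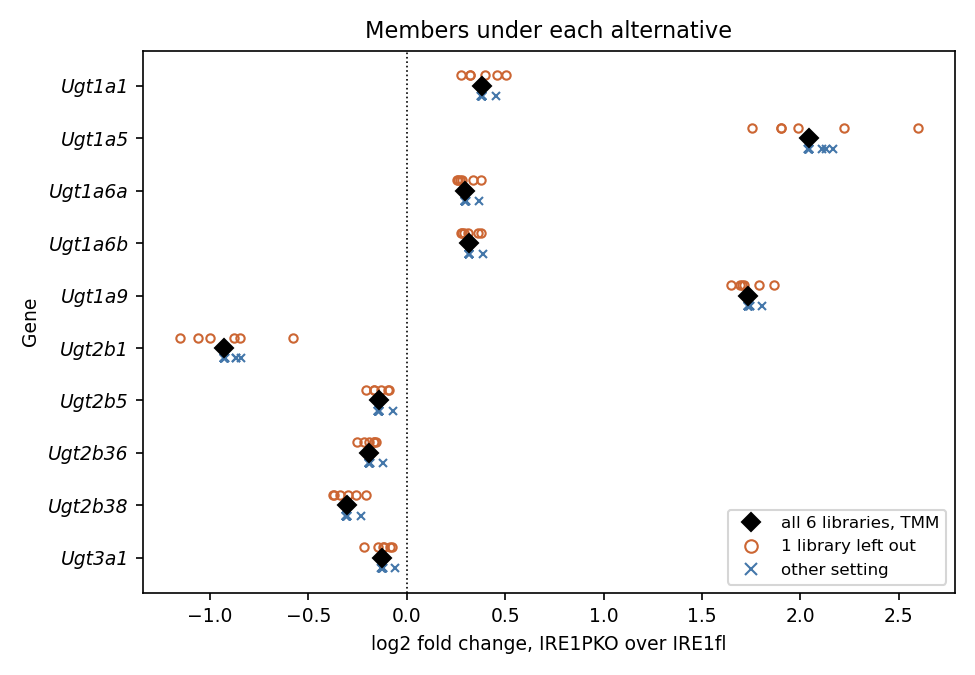
Log2 fold change, IRE1PKO over IRE1fl, of each member with all 6 libraries (diamonds), with each library left out in turn (circles) and under the other settings (crosses). No point of any member crosses 0, and the widest spread is for Ugt1a5, from 1.76 to 2.60, and Ugt2b1, from -1.15 to -0.58.

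UDP-glucuronic acid, the sugar donor, is made from glucose through hexokinase, phosphoglucomutase, UDP-glucose pyrophosphorylase and UDP-glucose dehydrogenase. Of 9 genes of this supply reported here, all tested, 2 rose and none fell, against 5.68% of all tested genes called higher. The median log2 fold change was 0.30, beside -0.00 over all tested genes. Ugdh, the dehydrogenase that makes UDP-glucuronic acid, rose by 0.82 on the log2 scale (SE 0.11, edgeR adjusted p = 0.00148), with 124 ± 17.7 CPM in IRE1fl and 219 ± 13.7 CPM in IRE1PKO. Hk2, a hexokinase of low level in liver, rose by 2.33 (SE 0.22, adjusted p = 0.000197). The calls of Ugdh and Hk2 were kept without each library in turn. Ugp2, the pyrophosphorylase, had 0.32 (SE 0.11, adjusted p = 0.0858), and Slc35d1, a carrier of UDP-glucuronic acid into the endoplasmic reticulum, -0.26 (SE 0.12, adjusted p = 0.220).

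Glucuronides leave the hepatocyte through ABC transporters and are taken up by organic anion transporters. Of 10 transport genes, all tested, 3 rose and 1 fell, against 5.68% and 3.86% of all tested genes. Their median log2 fold change was 0.04. Abcc3, which exports glucuronides to blood, rose from 190 ± 50.0 to 390 ± 45.6 CPM (log2 fold change 1.04, SE 0.20, edgeR adjusted p = 0.0153), and Abcc4, another such exporter, rose by 1.04 (SE 0.23, adjusted p = 0.0161). Slco1a4, an uptake carrier, rose by 1.05 (SE 0.24, adjusted p = 0.0479). Slco1a1, an uptake carrier of the same family, fell from 374 ± 108 to 81.8 ± 34.9 CPM (log2 fold change -2.19, SE 0.41, adjusted p = 0.0391). Abcc2, which exports bilirubin glucuronide to bile, had 0.24 (SE 0.09, adjusted p = 0.140). Single libraries decided these 4 calls. Abcc3 lost its call without IRE1PKO 1 or IRE1PKO 2 (adjusted p up to 0.0580) and Abcc4 without IRE1fl 3, IRE1PKO 1 or IRE1PKO 2 (up to 0.0681). Slco1a4 lost it when IRE1fl 2 or 3 or IRE1PKO 1 or 3 was left out, without the filter on low counts and with the replicate block (up to 0.204). Slco1a1 lost it when IRE1fl 2 or 3 or IRE1PKO 1 or 2 was left out and without that filter (up to 0.125).

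**Figure D5:**
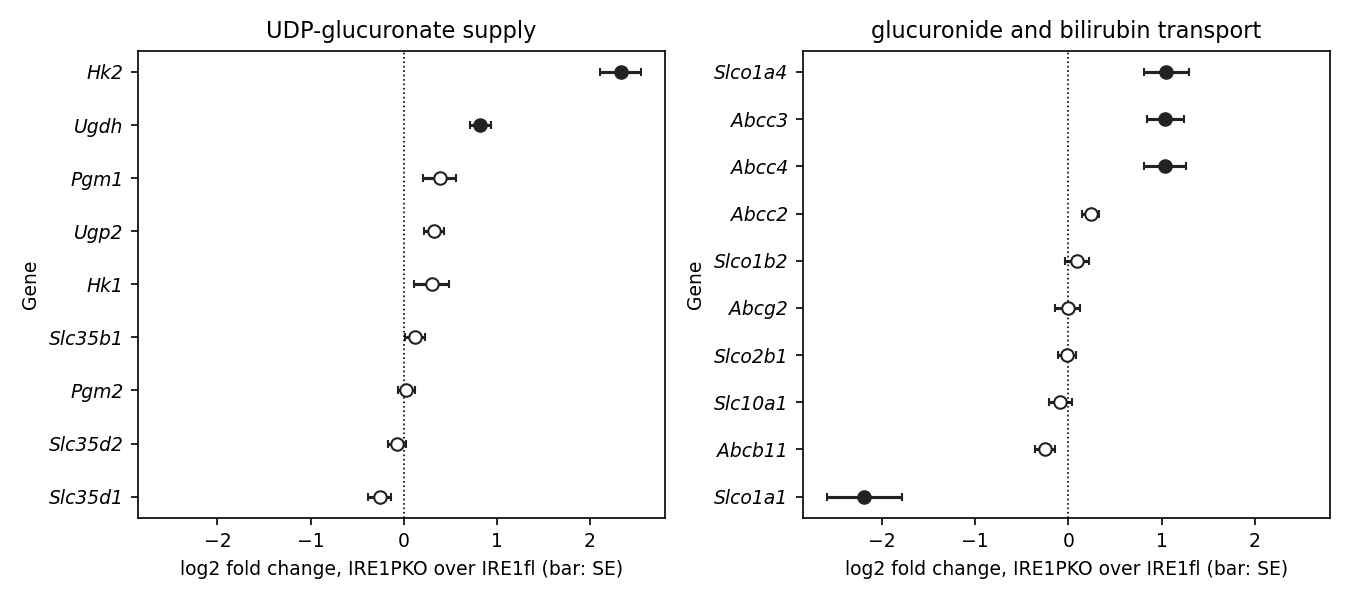
Log2 fold change, IRE1PKO over IRE1fl, of 9 genes of UDP-glucuronate supply (left) and the 10 transport genes (right), with bars of 1 SE and filled symbols for an adjusted p under 0.05. On the left Hk2 at 2.33 and Ugdh at 0.82 are filled; on the right Slco1a1 at -2.19 is filled on the negative side, and Abcc3, Abcc4 and Slco1a4 near 1.04 on the positive side.

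Of 8 genes of haem breakdown and bilirubin, all tested, Alas1 alone passed, with a log2 fold change of 1.03 (SE 0.19, edgeR adjusted p = 0.0137), a call lost without IRE1fl 3 (adjusted p = 0.0718). Alas1 starts haem synthesis, and Hmox1 and Blvra, which make bilirubin from haem, had 0.24 and -0.21 without passing. Of 6 genes of glucuronate use and ascorbate synthesis, a route in which mice turn glucuronate into vitamin C, 5 were tested and none passed in edgeR. The lowest p of that list was for Gulo, which makes ascorbate in the last step, with a log2 fold change of -0.47 (SE 0.14, adjusted p = 0.0627). Gulo passed in 5 of 17 alternatives, among them the DESeq2 Wald test (adjusted p = 0.0122) and edgeR without IRE1fl 1 (log2 fold change -0.62, adjusted p = 0.00868).

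Ugt1a9 was also compared with all non-UGT genes of at least 1 CPM on average by the root mean square distance between log2 CPM profiles over the 6 libraries, each centred on its mean. That level was reached by 12565 genes, a number that includes UGT genes. Of the non-UGT genes, Col3a1, a fibrillar collagen, was nearest at 0.09, followed by Anxa5 (0.13), Tnfrsf19 (0.14), 8430408G22Rik (0.17) and Cd63 (0.18). Ugt1a9 was taken as the member of lowest p, so its profile is mainly the difference between the groups. The genes near it rose by a like amount, from 2.89-fold for Cd63 to 3.12-fold for Tnfrsf19, and nearness shows no more than that. Col3a1 had 32.0, 21.2 and 25.5 CPM in IRE1fl and 81.0, 77.8 and 79.9 CPM in IRE1PKO. Col3a1 is also 1 of 10 stellate cell markers, of which 7 rose and none fell, against 5.68% of all tested genes called higher. Their summed level was 386 to 451 CPM in IRE1fl and 612 to 666 CPM in IRE1PKO. All 10 were detected. Of 9 sinusoidal endothelium markers 3 rose and none fell, with summed levels of 252 to 276 CPM in IRE1fl and 293 to 398 CPM in IRE1PKO. Of 10 Kupffer cell and macrophage markers none rose and 1 fell, and 9 had positive log2 fold changes. The part of the stellate, endothelial and macrophage lists in the rise of Ugt1a9 was not tested.

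Markers of the hepatocyte zones were compared next. Of 10 periportal markers 7 fell and none rose, against 3.86% of all tested genes called lower. Their summed levels were 12271 to 13877 CPM in IRE1fl and 6627 to 7988 CPM in IRE1PKO. Cps1 is on both this list and the hepatocyte list. Of 11 pericentral markers 1, Cyp1a2, fell and none rose, with summed levels of 8730 to 11135 and 7603 to 10937 CPM, which overlapped. Kidney and intestine, other organs with UGTs, were checked in the same way. Of 8 kidney tubule markers, Umod and Slc12a1 had no count and the list summed to 1.33 to 4.45 CPM in IRE1fl and 0.326 to 0.538 CPM in IRE1PKO, and the 1 tested fell. Of 8 intestinal epithelium markers, Cdx1, Cdx2, Sis and Alpi had no count, the list summed to 112 to 144 CPM in IRE1fl and 173 to 182 CPM in IRE1PKO, and 1 of the 2 tested rose. The part of these lists in the UGT values was not tested.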

How the data were processed

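Gene counts, not normalised, were deposited by the authors as a table with a column for each of 6 libraries. The submitters' processing notes name the build mm10. No source used here states the aligner, the counter or the gene models. Among values from 1 to 8, even counts outnumbered odd ones by 2.58 to 3.19 times, so both mates of a pair may have been counted. Libraries of a group differed beyond counting noise (chi-square 28.6 to 63.4 per gene). The table held 27 date-like names (0.178% of counts), which stayed in the totals. Columns were matched to samples by genotype and replicate number.

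Genes were filtered with filterByExpr (14954 kept), scaled by TMM and compared by two-sided quasi-likelihood tests with robust fitting and Benjamini-Hochberg adjustment (edgeR 4.0.16, R 4.3.3). With 3 libraries against 3, an exact permutation test cannot go below p = 0.1. limma 3.58.1, DESeq2 1.42.0, other scalings, filters and thresholds, halved counts, a replicate block and each library left out were alternatives. The steps were tested on simulated data. Exon lengths and coding identity come from GENCODE M21 and promoters from RefSeq (GRCm38.p6). Named were all members, every UGT gene with a count, up to 4 passing genes of each list (or that of lowest p), and the 5 genes nearest to the member of lowest p; marker genes and some unpassed list genes were named after their values were seen. Some listed genes are not reported here. Members and lists were chosen with earlier results of these data known.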

Additional observations from a re-analysis of the deposited data

How the results depend on the processing

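The sign of every member was the same in all settings run, and Ugt1a9 passed wherever it was tested as a gene of its own. The count of members called higher, 1 with all libraries, was 4 with library totals as the only scaling (7.68% of all genes), 3 without the filter on low counts (4.69%), 4 with DESeq2 (7.46%), 2 with limma-voom (5.36%), 2 without robust fitting (5.58%), 5 at a threshold of 0.1 (8.69%) and 2 with halved counts (6.31%). Leaving out 1 library at a time gave 1 to 3, against 2.59% to 5.66% of all genes. With the Ugt1a counts summed into 1 gene, that gene was the 1 called higher. The count called lower, 0, was 1 without robust fitting (Ugt2b1), against 4.00% of all genes. Over the left-out libraries it was 0 to 1, against 1.66% to 4.01% of all genes. Library totals moved the median of all genes by 0.07. Over all genes, 849 were higher and 577 lower, against 1299 and 992 at the threshold of 0.1 and 1148 and 415 with library totals. Leaving out a library gave 398 to 868 higher and 255 to 616 lower: 398 and 255 without IRE1PKO 1, 484 and 331 without IRE1PKO 2, 472 and 317 without IRE1fl 3, and 553 and 343 without IRE1fl 2. The log2 ratio of the summed Ugt1a level was 0.48 to 0.65 over the left-out libraries.

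With the replicate number as a block, 3 members were higher (Ugt1a1, Ugt1a6b and Ugt1a9), against 7.03% of all genes. The 1 lower was Ugt2b1 (log2 fold change -0.87, edgeR adjusted p = 0.00308), against 5.44% of all genes. Over all genes, 1051 were higher and 814 lower. Nothing in the labels ties libraries of the same number. Same-numbered libraries correlated in their deviations from the group mean across genes with r of -0.02 to 0.10, and the others with r of -0.11 to 0.03. IRE1fl 2 did not correlate best with its own number. With 3 libraries in each group, these r cannot decide whether the numbers pair the libraries.

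Between 3 and 3 libraries the spread limits what can be shown: Ugt1a5 and Ugt2b1 had SEs of 0.48 and 0.30 on the log2 scale. Depth was not limiting for the members, which had at least 162 counts in every library, but Ugt1a10 had as few as 4.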

Other observations

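Sensors of foreign compounds that act on UGT promoters, and their targets, gave the following values. Of 12 sensors and liver factors reported here, all tested, none passed in edgeR. An unadjusted p under 0.05 was found for 2, against 25.0% of all tested genes. These were Hnf4a (log2 fold change -0.28, SE 0.10, edgeR adjusted p = 0.0918) and Nfe2l2, which encodes NRF2 (0.29, SE 0.10, adjusted p = 0.108). Hnf4a passed in 2 of 17 alternatives, the DESeq2 Wald test (adjusted p = 0.0273) and the threshold of 0.1. Nr1i2, Nr1i3 and Ahr, which encode PXR, CAR and the aryl hydrocarbon receptor, had log2 fold changes of 0.12, 0.10 and -0.14. Of 5 tested targets of the aryl hydrocarbon receptor 1 fell and none rose. That gene, Cyp1a2, averaged 409 ± 34.0 CPM over the IRE1fl libraries and 187 ± 69.3 CPM over those of IRE1PKO (SD, n = 3 each; log2 fold change -1.13, SE 0.26, edgeR adjusted p = 0.0452). The Cyp1a2 call was lost without IRE1fl 1, IRE1fl 2, IRE1fl 3 or IRE1PKO 3 (adjusted p up to 0.156), with library totals and without the filter on low counts. Cyp1a1 had 0.867 ± 0.162 and 0.870 ± 0.192 CPM. The median log2 fold change of the 5 was 0.41, and 4 were positive. Nqo1 (0.88, SE 0.25, edgeR adjusted p = 0.0568) and Tiparp (0.51, SE 0.16, adjusted p = 0.0720) did not pass. For both, every IRE1PKO library was above every IRE1fl library. Cyp1b1 had 0.41, with groups that overlapped. Cyp1a2 is also on the pericentral marker list.

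Of 11 tested targets of CAR and PXR, 2 rose and 1 fell, against 5.68% and 3.86% of all tested genes. Por, the electron donor of P450 enzymes, fell by 0.54 on the log2 scale (SE 0.10, edgeR adjusted p = 0.00584), kept without each library in turn. Cyp2b10 rose by 1.54 (SE 0.35, adjusted p = 0.0182) from a level of 1.02 ± 0.482 CPM, and Gstm1 by 0.63 (SE 0.16, adjusted p = 0.0302). The Cyp2b10 call was lost without IRE1PKO 1 or IRE1PKO 2 (adjusted p up to 0.0664) and that of Gstm1 when IRE1fl 2 or 3 or IRE1PKO 1 or 2 was left out (up to 0.120). Of 8 tested NRF2 targets 3 rose and none fell, against 5.68% of all tested genes called higher. Gclm, Txnrd1 and Gsr had log2 fold changes of -0.01, 0.04 and 0.13, with groups that overlapped. Ephx1 (0.40) and G6pdx (0.70) did not pass either. Srxn1, a sulfiredoxin, rose by 0.95 (SE 0.14, adjusted p = 0.00258), kept without each library in turn. Gclc, which starts glutathione synthesis, rose by 0.59 (SE 0.13, adjusted p = 0.0204), lost when IRE1fl 2 or 3 or IRE1PKO 1 or 2 was left out (up to 0.0846). Me1, malic enzyme, rose by 1.92 (SE 0.37, adjusted p = 0.0389), lost without IRE1fl 1 or any single IRE1PKO library (up to 0.129), without the filter on low counts and with the replicate block.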
